A study of Mus musculus with 47 samples.

Results

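Collagen chain genes were taken as every gene whose deposited symbol is Col, a number, the letter a and a second number, and 44 of the 24391 genes in each count table met that rule. They comprised 11 fibrillar chains, 6 type IV chains of the basement membrane, 6 type VI chains and 21 minor chains, a class that here holds the fibril-associated, multiplexin, short-chain, transmembrane, anchoring-fibril and remaining types. Their transcripts were counted in brown fat, white fat and gastrocnemius muscle of C57Bl6 mice from 3 groups, harvested 21 days after inoculation. NTB mice bore no tumour, and their labels give no antibody. IgG1 mice carried tumours of HT1080, a cell line from a human fibrosarcoma, and were given a control antibody. 3P10 mice carried the same tumours and were given an antibody against GFRAL, the hindbrain receptor of the circulating factor GDF15. Both antibodies were dosed at 3 mg/kg each week from the day of inoculation. IgG1 against NTB therefore joins the tumour with the control antibody, and sex, age, depot of the white fat and immune status of the mice are not stated in the labels.

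Collagens are built from 3 chains wound into a triple helix. Fibrillar chains (types I, II, III, V, XI, XXIV and XXVII) are secreted as procollagens, trimmed outside the cell and assembled into the fibrils that give connective tissue its tensile strength; in fat and muscle they are made mainly by fibroblasts and related stromal cells. Type IV chains form the sheet-like network of basement membranes, which surrounds every adipocyte, muscle fibre and capillary. Type VI chains form beaded filaments next to those membranes and are abundant in fat, and mutations of COL6A1, COL6A2 and COL6A3 cause inherited muscle disease. Collagen genes are often arranged so that partner chains are regulated together. The best known case is Col4a1 and Col4a2, which are transcribed in opposite directions from a short shared promoter region.

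The promoters below belong to the fibrillar and type VI chains that were lower in the IgG1 group of both white fat and muscle and to the type IV pair that passed the test in neither. Each sequence is from RefSeq on GRCm38.p6, runs 5′ to 3′ along the gene's strand and covers 250 bases before to 50 bases after the start. Capitals mark 3 motifs on either strand. These are TATAAA (the TATA box), CCAAT (the CCAAT box) and GGGCGG (the GC box). The Col1a2 window is chr6:4505368-4505667 on the plus strand, Col3a1 chr1:45311288-45311587 plus, Col6a1 chr10:76725995-76726294 minus, Col6a2 chr10:76623581-76623880 minus, Col6a3 chr1:90843922-90844221 minus, Col4a1 chr8:11312777-11313076 minus and Col4a2 chr8:11312555-11312854 plus.
Col1a2: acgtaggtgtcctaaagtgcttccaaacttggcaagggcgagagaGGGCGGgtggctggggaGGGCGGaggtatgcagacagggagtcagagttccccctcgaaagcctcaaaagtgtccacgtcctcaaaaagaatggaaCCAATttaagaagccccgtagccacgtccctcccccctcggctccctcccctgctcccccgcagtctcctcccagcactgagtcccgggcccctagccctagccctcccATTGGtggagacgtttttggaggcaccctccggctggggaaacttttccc
Col3a1: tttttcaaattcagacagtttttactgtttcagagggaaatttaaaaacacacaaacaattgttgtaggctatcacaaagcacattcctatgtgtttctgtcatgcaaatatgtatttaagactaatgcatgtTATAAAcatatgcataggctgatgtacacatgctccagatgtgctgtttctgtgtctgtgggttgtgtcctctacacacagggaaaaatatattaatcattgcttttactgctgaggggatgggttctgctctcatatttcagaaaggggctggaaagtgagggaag
Col6a1: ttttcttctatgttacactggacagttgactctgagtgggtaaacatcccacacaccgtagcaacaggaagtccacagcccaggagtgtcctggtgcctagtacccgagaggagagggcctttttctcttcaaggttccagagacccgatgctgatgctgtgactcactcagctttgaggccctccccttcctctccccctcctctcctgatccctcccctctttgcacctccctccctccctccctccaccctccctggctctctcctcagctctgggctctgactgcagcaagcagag
Col6a2: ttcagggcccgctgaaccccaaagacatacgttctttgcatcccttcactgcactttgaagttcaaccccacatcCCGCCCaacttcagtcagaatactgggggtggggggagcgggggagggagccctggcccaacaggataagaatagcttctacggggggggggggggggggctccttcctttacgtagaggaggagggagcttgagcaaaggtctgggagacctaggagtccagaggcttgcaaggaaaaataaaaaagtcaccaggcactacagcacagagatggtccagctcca
Col6a3: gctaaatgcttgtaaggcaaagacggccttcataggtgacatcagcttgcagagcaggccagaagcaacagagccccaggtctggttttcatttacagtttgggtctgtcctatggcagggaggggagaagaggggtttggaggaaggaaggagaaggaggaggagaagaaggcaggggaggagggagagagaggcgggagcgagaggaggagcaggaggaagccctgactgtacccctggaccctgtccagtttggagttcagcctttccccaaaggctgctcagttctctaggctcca
Col4a1: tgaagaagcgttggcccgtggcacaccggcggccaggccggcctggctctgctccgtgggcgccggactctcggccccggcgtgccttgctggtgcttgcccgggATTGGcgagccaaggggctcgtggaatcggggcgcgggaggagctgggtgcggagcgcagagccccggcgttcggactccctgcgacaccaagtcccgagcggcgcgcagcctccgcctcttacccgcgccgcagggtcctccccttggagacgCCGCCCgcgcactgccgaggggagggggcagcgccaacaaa
Col4a2: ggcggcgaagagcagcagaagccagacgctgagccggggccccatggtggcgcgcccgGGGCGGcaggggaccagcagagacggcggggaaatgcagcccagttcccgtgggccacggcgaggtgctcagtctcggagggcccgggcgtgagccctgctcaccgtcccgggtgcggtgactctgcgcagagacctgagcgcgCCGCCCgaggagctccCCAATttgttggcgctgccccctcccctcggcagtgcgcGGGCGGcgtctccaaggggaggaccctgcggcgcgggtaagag
The Col4a1 and Col4a2 windows lie on opposite strands, share 78 bases, and have starts 21 bases apart. In these entries the 5′ ends of the pair overlap and leave no gap between the starts. Of the 44 chains, 35 had an entry, with 38 promoters in all; those without one were Col12a1, Col14a1, Col1a1, Col22a1, Col26a1, Col2a1, Col4a3, Col5a2 and Col9a3. TATAAA was present in 13.2% of the collagen windows and in 13.6% of all 32851 promoter windows of 300 bases. CCAAT was present in 34.2% against 37.4%, and the GC box motif in 60.5% against 35.7%. A second Col6a2 window, chr10:76623355-76623654 on the minus strand, has its start downstream of the printed one and holds 3 GC box matches beside 1. The upstream window was printed, and which start is used in these tissues is not known. These are counts of letters and no test was made of them.

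Library totals were 0.799 to 2.46 M counts in brown fat, 18.6 to 80.7 M in the white fat libraries and 24.8 to 33.5 M in those of muscle (M, mega). Collagen chains took 0.0686 to 0.141%, 0.117 to 0.987% and 0.0259 to 0.165% of these counts. Brown fat was sequenced from the 3′ end and at a lower depth than the other tissues, so only 16 of the 44 chains passed the filter on low counts there, against 36 in white fat and 36 in muscle. In brown fat the 28 chains left out had 0 to 142 reads over all libraries, and Col22a1, Col2a1, Col4a6 and Col6a4 had none. In white fat the 8 left out were Col10a1, Col11a1, Col19a1, Col25a1, Col26a1, Col2a1, Col9a1 and Col9a2 (3 to 132 reads), and in muscle Col10a1, Col25a1, Col2a1, Col4a6, Col6a4, Col6a5, Col9a2 and Col9a3 (10 to 111 reads). Levels are CPM, the count over each M counts after TMM scaling within a tissue. A gene without a read may lie at as many as 3 counts, that is 1.25 to 3.68 CPM in a brown fat library, 0.0395 to 0.161 CPM in a white fat library and 0.0838 to 0.143 CPM in a muscle library, counting error only.

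Defining markers of the labelled tissues were present, with summed levels of 25099 to 35428 CPM for adipocyte markers in white fat, 161644 to 340024 CPM for skeletal muscle markers in muscle and 7298 to 11535 CPM for brown adipocyte markers in brown fat. Some libraries stood apart. In white fat, IgG1 replicates 2 and 4 had brown adipocyte marker sums of 4757 and 4887 CPM against 128.5 to 1288 in the other 13 libraries, and keratinocyte marker sums of 63.2 and 908.7 CPM against 2.47 to 6.75. Their mammary epithelium marker sums were 222 and 317 CPM against 3.35 to 72.5. Their Schwann and nerve marker sums were 160 and 130 CPM against 61.9 to 106. These 2 libraries, NTB replicate 3 and 3P10 replicate 2 carry the library numbers 14, 23, 16 and 15, and the muscle libraries with the same numbers lay together at 51.7 to 57.6 on the first principal component of muscle (42.3% of the variance), with the other 11 at -29.3 to -2.7. What those numbers stand for is not stated in the labels. Counts of chains called in IgG1 against NTB of white fat and muscle, in white fat 3P10 against IgG1 and in the joint fit are given with and without them. Class sums, percentages of NTB and shares of the pool are given with all libraries only. In bulk tissue, fewer cells of a type and less RNA per cell cannot be told apart.

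In NTB mice the collagen pool differed between the tissues. Per kilobase of the longest coding transcript, white fat was led by Col3a1, the type III fibrillar chain, at 230.2 ± 47.01 CPM (SD, n = 5), followed by Col4a1 at 176 ± 29.5, Col15a1 at 138 ± 16.3, Col4a2 at 125 ± 24.3 and Col1a2 at 123 ± 23.7. Muscle was led by Col1a2 at 43.1 ± 7.02 and Col3a1 at 37.4 ± 10.4, with Col4a1 at 20.5 ± 6.94 and Col6a1 at 18.4 ± 2.44. Col1a2 and Col3a1 of muscle differed by less than their SD, as did Col4a2 and Col1a2 of white fat.

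In a joint fit of both tissues (edgeR's quasi-likelihood test, adjusted p under 0.05 over all 14898 genes), 32 chains were tested that also passed the filter in each tissue on its own, of which 17 were higher in white fat and 6 were higher in muscle. Over all genes of the joint fit, 38.7% were called higher in white fat and 33% lower, and the median was 0.10 on the log2 scale. Unlike the 32 chains, these genes include those that passed the filter through one tissue alone. The main type VI chains were called higher in white fat, Col6a1 by 1.72, Col6a2 by 1.69 and Col6a3 by 1.33, and Col6a6 was not called. Among fibrillar chains 6 of 9 were higher and 2 lower, among type IV chains 2 of 5 higher and 1 lower, and among minor chains 6 of 14 higher and 3 lower. A further 8 chains passed the joint filter through one tissue alone, Col4a6, Col6a4, Col6a5 and Col9a3 through white fat and Col9a1, Col11a1, Col19a1 and Col26a1 through muscle. Since the tissue with the higher level decided that such a chain was tested, these 8 are not counted and no fold is given for them. All 15 white fat libraries share group, replicate and library number with a muscle library. Whether such a pair is from the same mouse is not stated in the labels, and with the pair as a block the counts were 18 and 6. Without the libraries numbered 14 or more, 16 of the 32 were higher in white fat and 8 were higher in muscle. Col1a2 stood at 0.55 (SE 0.36, adjusted p = 0.168) and was not called.

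The muscle-side chains were mostly rare in fat. Col22a1, a fibril-associated chain of the myotendinous junction, had CPM values of 22.8, 33.3, 11.7, 37.98 and 37.7 in the NTB muscles and 0.142, 0.283, 0.197, 0.215 and 0.0906 in the NTB white fat samples, with no overlap. Its difference was -8.18 on the log2 scale (SE 0.64, adjusted p = 4.20e-12). The white fat side rested on 4, 7, 7, 5 and 2 reads, near the floor of 0.0846 to 0.136 CPM in those libraries. Col24a1, a minor fibrillar chain, differed by -6.69, with 9, 6, 38, 2 and 8 reads in the NTB white fat libraries. The size of both differences is therefore uncertain. Col7a1, the chain of anchoring fibrils, differed by -4.27. On the fat side, the multiplexins Col18a1 and Col15a1, both proteoglycan collagens of basement membrane zones, differed by 3.004 and 2.97. Col15a1 values in NTB were 626, 699, 641, 826 and 766 CPM in white fat and 44.7, 60.6, 32.7, 55.3 and 40.6 CPM in muscle. The tendon markers were called lower in white fat in the same fit (7 of 7), but only 4 passed the filter in white fat on its own. The rest entered the joint fit through muscle, so their calls carry no weight. The part of tendon in the chain differences was not tested.

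**Figure D1:**
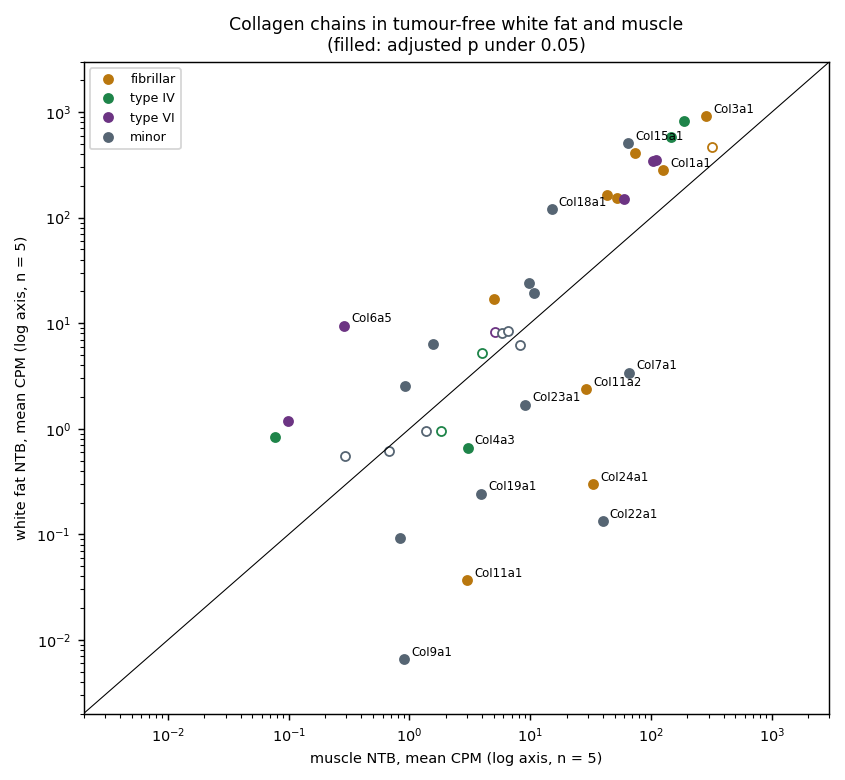
Mean level of each collagen chain in NTB white fat (y axis) against NTB muscle (x axis), in CPM from the joint scaling of both tissues on log axes, coloured by class, with filled points for chains that passed the test; the 8 chains that passed the filter through one tissue alone are drawn too. Col6a1, Col6a2 and Col6a3 lie above the line of equal level, while Col22a1 and Col24a1 lie far to the muscle side.

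Class sums show how the pool stood in each group. In white fat the fibrillar chains summed to 3801, 3465, 2712, 3685 and 3216 CPM in NTB replicates 1 to 5, 1892, 509.8, 1307, 402 and 792 in IgG1 and 2182, 3032, 3599.8, 1873 and 1828 in 3P10. Every IgG1 sample lay below every NTB sample, and IgG1 replicate 1 lay within the 3P10 range while the other IgG1 samples lay below it. As a percentage of the NTB mean, the white fat IgG1 mean was 29.05% for fibrillar, 29.7% for type VI, 43.0% for minor and 61.3% for type IV chains. In 3P10 the corresponding values were 74.1, 74.0, 87.9 and 106%. Muscle had the same order of fibrillar (35.6%), type VI (37.9%) and type IV (50.6%) chains in IgG1, with minor chains at 78.1%, and 48.8, 54.2, 62.9 and 75.6% in 3P10. In brown fat the IgG1 values were 79.3, 67.8, 93.7 and 71.0% and the 3P10 values 91.6, 89.9, 85.8 and 81.8%. A large part of the muscle minor sum (mean 139 CPM in IgG1 and 178 in NTB) was 1 chain, Col7a1. Its muscle values were 92.9, 47.6, 41.6, 83.0 and 54.6 CPM in IgG1 and 40.2, 37.6, 80.2, 40.0 and 39.1 CPM in NTB. Of 17 tested minor chains of muscle, 13 had a negative difference in IgG1 against NTB, with a median of -0.62 on the log2 scale. In white fat and muscle the sums weight a chain by its transcript number and length. Brown fat was sequenced from the 3′ end, so its sums are not weighted by length in that way. No test was made of the sums.

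The make-up of the pool differed between the groups as well as its size. Fibrillar chains were 44.5% ± 2.29 (SD) of collagen CPM in NTB white fat (41.97 to 47.9%) and 32.6% ± 2.08 in IgG1 (29.7 to 34.7%), and 3P10 lay between at 39.4% ± 2.63. The type IV share was 26.1% ± 3.08 in NTB (22.9 to 30.2%) and 41.8% ± 2.43 in IgG1 (38.5 to 44.1%), again without overlap. In muscle the share of minor chains was 13.6% ± 1.68 in NTB (12.4 to 16.1%) and 24.6% ± 4.04 in IgG1 (21.3 to 30.4%), and the fibrillar share 52.9% ± 2.77 against 40.6% ± 4.90. Col7a1, with the values given above, is a large part of that minor share. In brown fat the shares of all 3 groups overlapped. The shares are not independent of each other, since they sum to the whole.

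**Figure D2:**
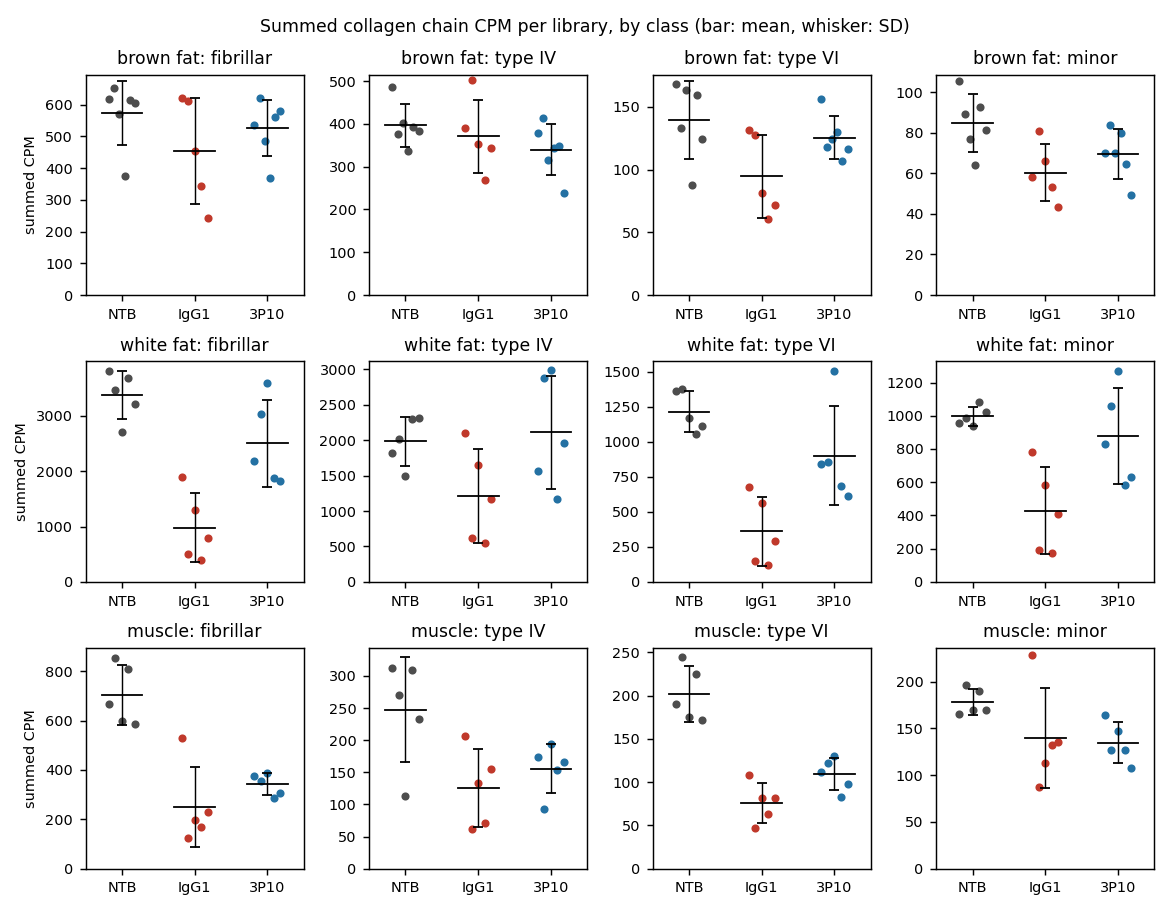
Summed CPM of the fibrillar, type IV, type VI and minor chains in each library (points) with the group mean, by tissue and group. In white fat and muscle, the IgG1 points of the fibrillar and type VI classes lie below the NTB points, whereas the brown fat groups overlap.

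White fat of IgG1 mice had lower levels of the interstitial fibrillar chains and the main type VI chains than white fat of NTB mice. Of 36 chains tested, 9 fell and 0 rose, against 4.55% and 4.09% of all 14402 genes called lower and higher, and the median log2 difference of the chains was -0.82 against -0.01 over all genes. The 9 were 4 of 9 fibrillar chains, 3 of 6 type VI chains and 2 of 15 minor chains, and 0 of 6 type IV chains passed (1 at an unadjusted p under 0.05, and 1, Col4a4, called by DESeq2). Over all classes, 25 chains had a negative difference and 20 an unadjusted p under 0.05.

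The type I chains assemble together into the major fibril of connective tissue. Col1a1 was at 473, 387, 336, 422 and 363 CPM in NTB replicates 1 to 5 and at 179.6, 25.8, 103, 18.4 and 62.7 CPM in IgG1. All IgG1 values lay below all NTB values, with replicates 2 and 4 the lowest, and Col1a1 fell by 2.35 (SE 0.49, adjusted p = 0.0139) on the log2 scale by edgeR's quasi-likelihood test. Its partner Col1a2 was at 731, 711, 696, 709.97 and 429.8 CPM in NTB and 272, 72.2, 238, 61.9 and 93.6 CPM in IgG1. NTB replicate 5 was the lowest of its group, yet stood above every IgG1 sample, and Col1a2 fell by 2.15 (SE 0.39, adjusted p = 0.0088). Col3a1, the homotrimeric type III chain that co-assembles with type I, was at 1424, 1366, 860.0, 1535 and 1218 CPM in NTB and 716, 142, 387, 126 and 229 CPM in IgG1. The groups did not overlap, and Col3a1 fell by 2.001 (SE 0.40, adjusted p = 0.0117).

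Type V chains start fibrils and limit their width. Col5a2 was at 234, 222, 194, 304 and 197 CPM in NTB and 159.5, 60.8, 138, 41.4 and 88.1 CPM in IgG1, and fell by 1.24 (SE 0.36, adjusted p = 0.0434) with no overlap. The other type V chains were not called, with differences of -1.49 (SE 0.47, adjusted p = 0.0571) for Col5a1 and -1.40 (SE 0.45, adjusted p = 0.0621) for Col5a3. Col11a2, whose product shares the type V/XI fibril family, had the opposite sign at 1.44 (SE 0.49, adjusted p = 0.0745), and its highest IgG1 values, 19.8 and 13.7 CPM, were in replicates 2 and 4. In the other 3 IgG1 samples Col11a2 was at 2.81 to 5.98 CPM, beside 1.61 to 5.51 CPM over the NTB samples.

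All 3 chains of the main type VI trimer, α1, α2 and α3, fell. Col6a1 was at 547, 527, 463, 433 and 448 CPM in NTB and 272, 61.4, 269.6, 49.7 and 117 CPM in IgG1, and fell by 1.65 (SE 0.42, adjusted p = 0.0282). Col6a2, encoded next to Col6a1 on chromosome 10, was at 541, 580.4, 473, 391.9 and 487 and 284, 44.3, 193, 34.4 and 108 CPM, and fell by 1.90 (SE 0.48, adjusted p = 0.0288). Col6a3, whose cleaved end is released as endotrophin, was at 231, 234, 211, 204 and 169 and 101, 22.1, 78.4, 21.6 and 56.1 CPM, and fell by 1.91 (SE 0.37, adjusted p = 0.00991). In none of these chains did an IgG1 sample reach the lowest NTB sample. The α6 chain Col6a6 was not called, at -1.18 (SE 0.39, adjusted p = 0.0658).

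Basement-membrane chains gave no call by edgeR. Col4a1 was at 1073, 1192, 884, 1371 and 1314 CPM in NTB and 1239, 354, 930.0, 299 and 626 CPM in IgG1, a difference of -0.76 (SE 0.36, adjusted p = 0.175). IgG1 replicates 1 and 3 lay within the NTB range, while replicates 2, 4 and 5 lay below it. Col4a2, which shares the promoter region printed above, followed with 730.2, 814, 594, 912 and 997 and 849, 264, 706, 234 and 547 CPM and a difference of -0.64 (SE 0.34, adjusted p = 0.228). The scarcer chains Col4a3, Col4a4 and Col4a5, known from kidney basement membranes, had differences of -1.12, -1.28 and -0.32, and none was called by edgeR.

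Among minor chains, Col8a2, a short-chain network collagen, fell by 1.85 (SE 0.52, adjusted p = 0.041), from 14.04, 12.5, 12.1, 4.52 and 1.90 CPM in NTB to 3.11, 2.09, 4.63, 1.72 and 0.946 in IgG1. NTB replicates 4 and 5 overlapped the IgG1 range. The fibril-associated chain Col16a1 fell by 1.32 (SE 0.38, adjusted p = 0.0447), with NTB at 47.4, 40.02, 42.9, 25.9 and 14.5 CPM and IgG1 at 15.2, 12.95, 18.3, 14.5 and 7.19 CPM. NTB replicate 5 lay within the IgG1 range of Col16a1. Col14a1, another fibril-associated chain, missed the threshold at -1.34 (SE 0.41, adjusted p = 0.0545). Col15a1 was at 626, 699, 641, 826 and 766 CPM in NTB and 585, 67.4, 318, 30.04 and 289 CPM in IgG1, without overlap, and was not called (-1.47 (SE 0.55, adjusted p = 0.0956)), and Col18a1 was at -0.89 (SE 0.37, adjusted p = 0.127). The differences of Col12a1 and Col8a1 were -0.14 and -1.07. Col7a1 and Col17a1, collagens of the junction between epidermis and dermis, were highest in the IgG1 library with the most keratinocyte transcripts, replicate 4, at 15.9 and 16.5 CPM, against 2.96 to 11.3 and 1.68 to 8.23 CPM in the other 14 white fat libraries.

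**Figure D3:**
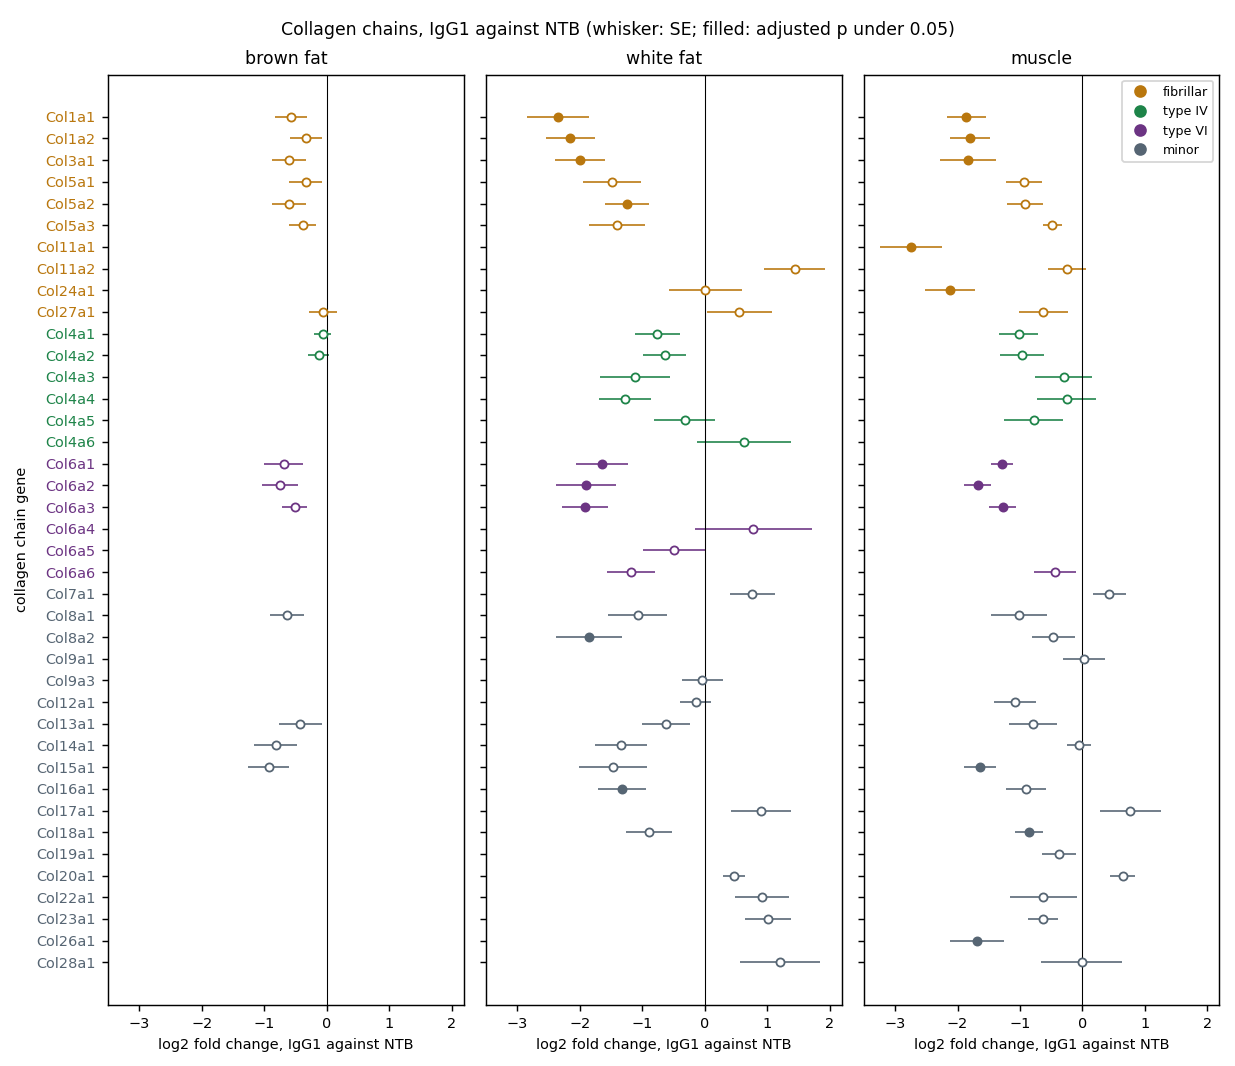
Log2 difference of IgG1 against NTB for each tested chain in the 3 tissues, with whiskers of 1 SE and colours by class; filled markers passed the test. The 9 filled points of white fat and the 11 of muscle all lie left of 0, and no brown fat point is filled.

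Several values moved with these calls in white fat, and their part in the result was not tested. The fibroblast marker sum was between 1279 and 2386 CPM over NTB libraries, between 674 and 1502 over IgG1 and between 960 and 2068 over 3P10, and all 10 had a negative difference in IgG1 against NTB, of which 3 were called. Macrophage markers were negative in 6 of 6 with 0 called, and pericyte and smooth muscle markers in 5 of 7 with 1 called, their sum running from 382 to 4202 CPM over NTB and from 496 to 1093 over IgG1 libraries. Brown adipocyte markers had 7 of 7 positive differences with 0 called, and 2 of 4 tested keratinocyte markers were called higher. Krt14, Krt5 and Krt1 were at 0 in some libraries. Mammary epithelium markers were negative in 0 of 4 and Schwann and nerve markers in 2 of 6, with 0 called in either list. The count of 9 was 4 when IgG1 replicate 2, 4 or 5 or NTB replicate 1, 2 or 3 was left out, 15 when IgG1 replicate 1 or 3 was, and 1 (Col6a3) without the 4 libraries numbered 14 or more. Without those libraries the differences were -1.84 (adjusted p = 0.0586) for Col1a1, -1.68 (adjusted p = 0.072) for Col1a2, -1.64 (adjusted p = 0.0584) for Col3a1, -1.15 (adjusted p = 0.119) for Col6a1, -1.36 (adjusted p = 0.115) for Col6a2 and -1.42 (adjusted p = 0.0433) for Col6a3, all still negative. Col1a1, Col1a2, Col3a1 and Col6a3 were called in each of the 10 fits that left out 1 library.

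Muscle of IgG1 mice also had lower levels of type I, III and VI chains than muscle of NTB mice. Of 36 chains tested, 11 fell and 0 rose, against 2.92% and 2.68% of all 13283 genes, with a median of -0.82 against 0.01 over all genes. The calls were 5 of 10 fibrillar, 3 of 4 type VI, 3 of 17 minor and 0 of 5 type IV chains, and 32 chains had a negative difference (21 at an unadjusted p under 0.05). Col1a1, Col1a2, Col3a1, Col6a1, Col6a2 and Col6a3 were lower in both tissues, which is 66.7% of the white fat calls and 54.5% of the muscle calls. Over all genes, 118 were called lower in both tissues, 17.99% of the white fat list and 30.4% of the muscle list. No test was made of either overlap.

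Col6a2 and Col6a1 had the smallest p-values in muscle. Col6a2 was at 74.9, 93.5, 68.5, 95.7 and 61.6 CPM in NTB and 36.9, 15.4, 24.2, 20.04 and 26.9 CPM in IgG1, and fell by 1.68 (SE 0.21, adjusted p = 0.000869). Col6a1 was at 70.7, 90.98, 70.9, 79.9 and 65.6 and 41.001, 20.4, 32.7, 27.8 and 32.6 CPM, and fell by 1.29 (SE 0.18, adjusted p = 0.00125). Col6a3 was at 40.3, 54.9, 33.1, 45.8 and 40.7 and 26.4, 9.66, 20.4, 13.7 and 18.4 CPM, and fell by 1.28 (SE 0.22, adjusted p = 0.00418). No IgG1 value of these chains reached the NTB range.

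The fibrillar chains followed. Col1a1 was at 91.02, 109, 70.01, 101 and 82.8 CPM in NTB and 50.2, 11.6, 24.7, 14.004 and 24.9 CPM in IgG1, and fell by 1.86 (SE 0.31, adjusted p = 0.00397). Col1a2 was at 198, 267, 232, 268 and 187 and 145, 31.4, 53.3, 45.3 and 54.9 CPM, and fell by 1.81 (SE 0.32, adjusted p = 0.00481). Col3a1 was at 216, 275, 135, 249.9 and 165 and 164, 21.4, 39.5, 22.5 and 44.5 CPM, and fell by 1.84 (SE 0.45, adjusted p = 0.0264). IgG1 replicate 1 was the highest of its group for all 3 type I and III chains and overlapped NTB for Col3a1 alone. Col24a1 was at 18.9, 38.4, 28.5, 20.5 and 13.1 and 11.5, 3.24, 3.99, 2.30 and 6.42 CPM, and fell by 2.12 (SE 0.40, adjusted p = 0.00627), and Col11a1 fell by 2.74 (SE 0.50, adjusted p = 0.00575) from 1.58, 2.48, 0.764, 3.18 and 2.86 CPM to 0.383, 0.216, 0.525, 0.0306 and 0.458 CPM. The type V chains were not called, with differences of -0.94 for Col5a1, -0.92 for Col5a2 and -0.48 for Col5a3.

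Of the minor chains of muscle, Col15a1 fell by 1.64 (SE 0.26, adjusted p = 0.00275), from 44.7, 60.6, 32.7, 55.3 and 40.6 CPM in NTB to 24.5, 8.84, 15.6, 9.16 and 17.02 CPM in IgG1 with no overlap. Its relative Col18a1, the source of endostatin, fell by 0.86 (SE 0.23, adjusted p = 0.0383), and Col26a1, a chain at low level (NTB values between 0.384 and 0.812 CPM, IgG1 values between 0.0306 and 0.421), fell by 1.69 (SE 0.43, adjusted p = 0.0308). Without the muscle libraries numbered 14 or more, neither was called, with Col18a1 at -0.56 (adjusted p = 0.0788) and Col26a1 at -1.18 (adjusted p = 0.115). The fibril-associated chains Col12a1 and Col14a1 were at -1.07 (SE 0.34, adjusted p = 0.073) and -0.05 (SE 0.19, adjusted p = 0.921), and the short chain Col8a1 at -1.02 (SE 0.45, adjusted p = 0.208). Col20a1, another fibril-associated chain, was the uncalled chain with the smallest p of positive sign, at 0.64 (SE 0.19, adjusted p = 0.0652).

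Type IV chains were uncalled by edgeR, and DESeq2 called Col4a1. Col4a1 was at 176, 144, 63.2, 172 and 123 CPM in NTB and 111, 35.8, 68.1, 40.8 and 78.5 CPM in IgG1, a difference of -1.02 (SE 0.31, adjusted p = 0.0652). NTB replicate 3, numbered 16, fell inside the IgG1 range, and IgG1 replicates 2 and 4, numbered 14 and 23, were the lowest. Col4a2 had the same pattern, with 131, 117, 46.6, 131 and 103 and 83.99, 24.5, 61.7, 27.9 and 71.8 CPM and a difference of -0.97 (SE 0.35, adjusted p = 0.122). With the 4 muscle libraries numbered 14 or more left out, 12 chains were called lower. These were the 11 less Col18a1 and Col26a1, with Col4a1 (-0.84, adjusted p = 0.0121), Col4a2 (-0.73, adjusted p = 0.00797) and Col12a1 (-0.85, adjusted p = 0.0246) added. Col4a3, Col4a4 and Col4a5 had differences of -0.30, -0.25 and -0.78, without a call.

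**Figure D4:**
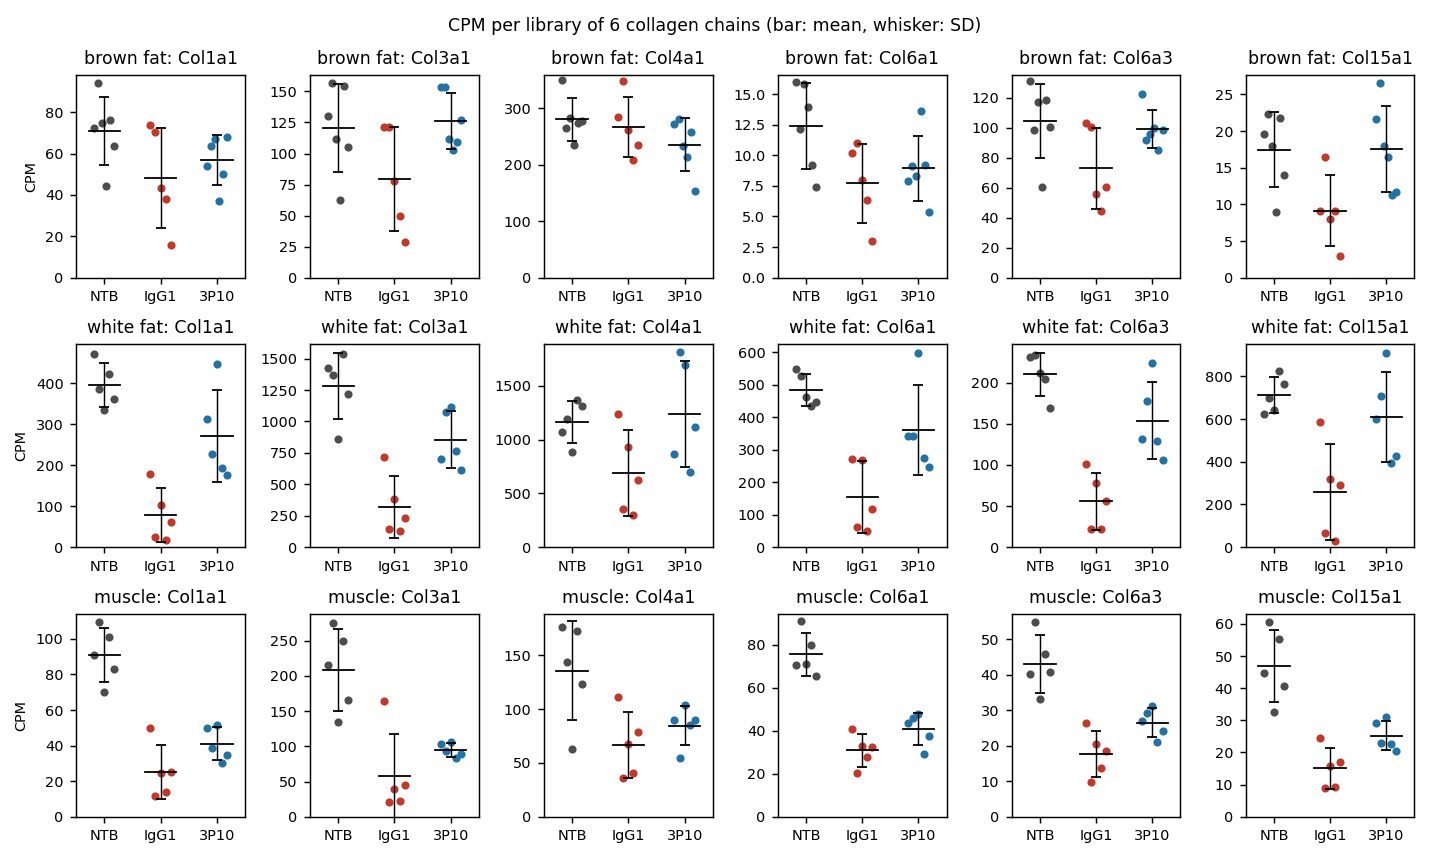
CPM of Col1a1, Col3a1, Col4a1, Col6a1, Col6a3 and Col15a1 in each library of the 3 tissues (points) with the group mean (bar) and SD (whisker), on axes that start at 0. In white fat and muscle the IgG1 points of Col1a1, Col6a1 and Col6a3 lie below all NTB points, and in brown fat the groups overlap.

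The tendon marker sum moved with the muscle calls, between 62.5 and 104 CPM over NTB, between 20.3 and 56.9 over IgG1 and between 29.5 and 73.5 over 3P10 libraries (6 of 7 tested markers negative in IgG1 against NTB, 2 called). The fibroblast sum was between 606 and 909 CPM over NTB and between 530 and 719 over IgG1 libraries (9 of 10 negative, 2 called). Endothelial markers were negative in 8 of 8 (1 called), with sums between 123 and 282 CPM over NTB and between 88.9 and 191 over IgG1 libraries. The part of these markers in the result was not tested. The count was 8 to 18 when 1 library was left out, the highest without IgG1 replicate 1. Col6a1, Col6a2, Col6a3, Col1a1, Col1a2, Col11a1, Col15a1 and Col24a1 were called in all 10 such fits.

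The joint fit also tested, as an interaction, whether IgG1 mice departed from NTB by a different amount in each tissue. Of the 32 chains that passed the filter in both tissues, 0 were called by edgeR. Of them, 6 had an unadjusted p under 0.05 and 2 were called by DESeq2 (Col23a1 and Col24a1). Over all genes of the joint fit, 0.644% were called higher and 0.47% lower, including genes that passed its filter through one tissue alone. With white fat and muscle libraries of the same number as a block, 0 of the 32 chains were called as well. The chains called in both tissues had interaction values of -0.47 for Col1a1, -0.32 for Col1a2, -0.14 for Col3a1, -0.34 for Col6a1, -0.20 for Col6a2 and -0.61 for Col6a3, and none passed. Col11a1, which entered the joint fit through muscle alone, had 7, 38 and 18 reads over the NTB, IgG1 and 3P10 white fat libraries and 304, 46 and 77 in muscle. Its white fat levels were 0.0711, 0.0405, 0.0564, 0.0431 and 0.0453 CPM in NTB and 0, 0.241, 0.0625, 0.355 and 0.114 CPM in IgG1. All NTB values lay below the floor of their library (0.0846 to 0.136 CPM), so that its effect in white fat could not be measured. IgG1 replicates 2 and 4 lay above their floors of 0.121 and 0.0395 CPM.

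In white fat, the 3P10 group had higher levels of Col1a1, Col1a2, Col3a1, Col5a2, Col6a3 and Col16a1 than the IgG1 group. Of 36 chains tested, 6 rose and 0 fell, against 3.96% and 3.46% of all genes, with a median of 0.75 against 0.01 over all genes. These were 4 of 9 fibrillar, 1 of 6 type VI and 1 of 15 minor chains, and 0 of 6 type IV chains (4 at an unadjusted p under 0.05, 1 by DESeq2). Both comparisons of this tissue share the IgG1 libraries, so their values are set side by side only.

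Col1a1 was at 312, 227, 448, 193 and 176 CPM in 3P10 and rose by 1.80 (SE 0.48, adjusted p = 0.0385) against IgG1, beside its -2.35 in IgG1 against NTB. Col1a2 was at 369, 432, 581, 378 and 233 CPM and rose by 1.43 (SE 0.38, adjusted p = 0.0385), beside -2.15. Col3a1 was at 701, 1079, 1115, 764 and 614 CPM and rose by 1.42 (SE 0.40, adjusted p = 0.0445), beside -2.001. IgG1 replicate 1 lay within the 3P10 range of all of these chains, and replicate 3 within that of Col1a2. Col5a2 was at 156, 416, 322, 154 and 184 CPM and rose by 1.34 (SE 0.36, adjusted p = 0.0378), beside -1.24, and the minor chain Col16a1 was at 36.1, 79.02, 35.6, 31.7 and 16.5 CPM and rose by 1.54 (SE 0.38, adjusted p = 0.0311), beside -1.32. Col6a3 was at 132, 177, 223, 129 and 106 CPM and rose by 1.46 (SE 0.36, adjusted p = 0.0311), beside -1.91, and it alone of the called chains showed no overlap between 3P10 and IgG1.

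The partner chains Col6a1 and Col6a2 were not called in that comparison, at 1.23 (SE 0.41, adjusted p = 0.0754) and 1.44 (SE 0.47, adjusted p = 0.0716). Their 3P10 values were 342, 343, 597, 276 and 246 CPM for Col6a1 and 334, 321, 665, 237 and 245 CPM for Col6a2, with replicate 3 far above the rest. Col4a1 was at 867, 1811, 1694, 699 and 1121 CPM, with a difference of 0.85 (SE 0.36, adjusted p = 0.144), and Col4a2 at 692, 1039.6, 1291, 464 and 835 CPM, with 0.73 (SE 0.34, adjusted p = 0.175). Col5a1 and Col14a1 were at 1.41 (SE 0.46, adjusted p = 0.0714) and 1.26 (SE 0.41, adjusted p = 0.0703). Fibroblast markers were positive in 10 of 10 (3 called) and macrophage markers in 6 of 6 (2 called). Brown adipocyte markers were negative in 7 of 7 (0 called) and keratinocyte markers in 4 of 4 tested (2 called). Mammary epithelium markers were negative in 4 of 4 and Schwann and nerve markers in 4 of 6 (0 called in either). The part of these markers was not tested.

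The 6 calls changed with the libraries used. The count was 0 when 3P10 replicate 1, 2 or 3 or IgG1 replicate 2, 4 or 5 was left out, 3 without 3P10 replicate 4, 11 when 3P10 replicate 5 was the one left out, and 13 and 14 when it was IgG1 replicate 1 and 3. It was 0 without the libraries numbered 14 or more, where Col1a1 stood at 1.30 (adjusted p = 0.155) and Col6a3 at 0.91 (adjusted p = 0.152). Against NTB, 3P10 white fat had 0 of 36 chains called by edgeR, 1 at an unadjusted p under 0.05 (Col22a1) and 0 by DESeq2, where 0% of all genes were called in either direction. The differences were -0.72 (SE 0.38) for Col1a2, -0.58 (SE 0.39) for Col3a1 and 0.09 (SE 0.36) for Col4a1, so a difference of the type I and III chains from NTB was not detectable at this spread, which does not show equal levels.

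**Figure D5:**
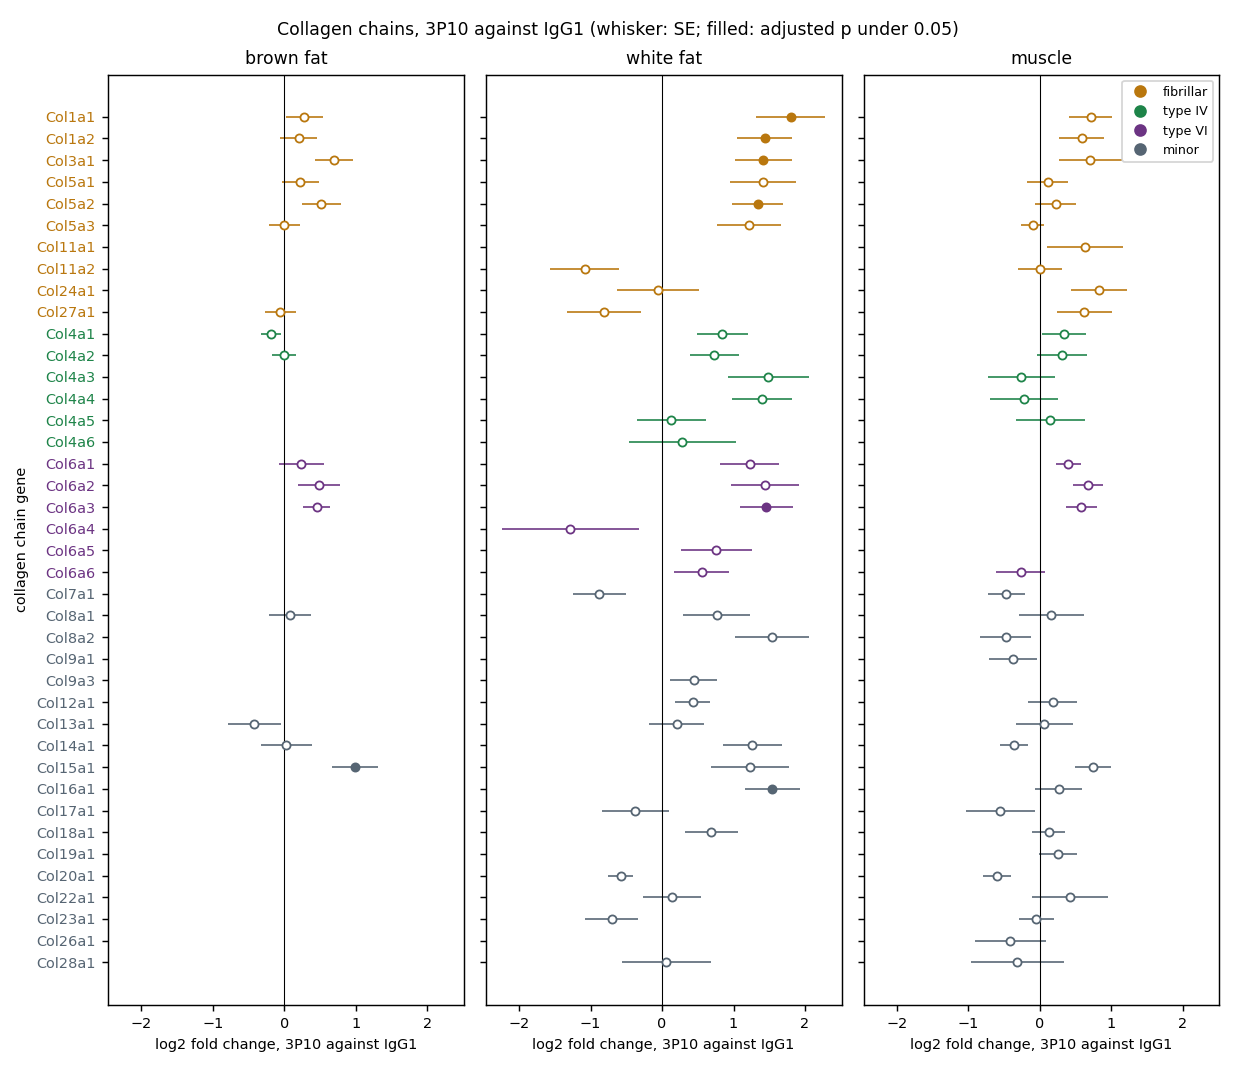
Log2 difference of 3P10 against IgG1 for each tested chain in the 3 tissues, with whiskers of 1 SE and colours by class; filled markers passed the test. White fat has 6 filled points and brown fat 1, all right of 0, and muscle has none.

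In muscle, no chain passed in 3P10 against IgG1. The count was 0 of 36 by edgeR, with 7 at an unadjusted p under 0.05 and 0 by DESeq2, where 0.0903% and 0.12% of all genes were called higher and lower, and the median was 0.15 against -0.02 over all genes. The 3P10 values were 49.7, 38.7, 51.4, 30.4 and 34.999 CPM for Col1a1, 104, 93.6, 106, 82.9 and 89.3 CPM for Col3a1 and 38.7, 45.3, 48.1, 29.8 and 34.4 CPM for Col6a2. The smallest p belonged to Col6a2, at 0.67 (SE 0.21, adjusted p = 0.222), followed by Col20a1 at -0.60 (SE 0.19, adjusted p = 0.237), Col15a1 at 0.75 (SE 0.25, adjusted p = 0.268) and Col6a3 at 0.58 (SE 0.22, adjusted p = 0.338). Without IgG1 replicate 1, which had the highest fibrillar sum of its group, 5 chains were called. Without the 4 muscle libraries numbered 14 or more, IgG1 replicates 2 and 4 among them, Col6a2 stood at 0.37 (adjusted p = 0.422, edgeR). In that fit Col6a3 stood at 0.26 (adjusted p = 0.504), Col15a1 at 0.44 (adjusted p = 0.333) and Col20a1 at -0.57 (adjusted p = 0.192).

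Muscle 3P10 against NTB also gave 0 of 36 by edgeR, where 0% of all genes were called in either direction, with 19 chains at an unadjusted p under 0.05 and 34 of 36 negative (median -0.69 against 0.00 over all genes). DESeq2 called 4, Col11a1, Col6a1, Col6a2 and Col26a1. Col6a1 stood at 43.4, 45.8, 47.7, 29.03 and 37.6 CPM, below all NTB samples, with -0.89 (SE 0.18, adjusted p = 0.384). Col6a2 was at -1.01 (SE 0.21, adjusted p = 0.384) and Col1a2 at -1.22 (SE 0.32, adjusted p = 0.592). No test compared the 3P10 difference of white fat with that of muscle.

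Few collagen chains of brown fat could be tested, and 1 call was made over its 3 comparisons. In NTB, mean levels were 280.2 ± 38.1 CPM (SD, n = 6) for Col4a1, 130.2 ± 36.3 for Col1a2, 120.3 ± 35.5 for Col3a1 and 104 ± 24.8 for Col6a3. In IgG1 against NTB, 0 of 16 chains passed by edgeR and 0 by DESeq2, with 9 at an unadjusted p under 0.05, where 1.86% and 1.11% of all 8711 genes were called higher and lower. All 16 differences were negative, with a median of -0.55 against -0.01 over all genes. The smallest p belonged to Col15a1, at 19.6, 22.3, 17.9, 8.999, 21.7 and 14.04 CPM in NTB and 9.09, 16.5, 7.98, 9.04 and 2.99 CPM in IgG1, with a difference of -0.93 (SE 0.33, adjusted p = 0.129). It was followed by Col6a3 at -0.52 (SE 0.20, adjusted p = 0.161), Col6a2 at -0.75 (SE 0.29, adjusted p = 0.168) and Col14a1 at -0.82 (SE 0.34, adjusted p = 0.194). The type IV chains were at -0.07 for Col4a1 and -0.13 for Col4a2. NTB replicate 4 and IgG1 replicate 5 were the lowest of their groups for Col3a1, Col1a1 and Col15a1. Since the brown fat numbering runs through one group after another, any effect of that order and the group cannot be told apart.

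In brown fat, 3P10 against IgG1 gave 1 call of 16, where 6.05% and 5.58% of all genes were called higher and lower. Col15a1 was at 21.6, 26.5, 17.9, 16.5, 11.3 and 11.6 CPM in 3P10 and rose by 0.99 (SE 0.32, adjusted p = 0.0466) with overlapping groups. The call held in 3 of the 11 fits that left out 1 library and was lost with a filter of 1 CPM in 5 libraries. Col3a1 was at 0.69 (SE 0.27, adjusted p = 0.0945), Col6a3 at 0.45 (SE 0.20, adjusted p = 0.137) and Col5a2 at 0.52 (SE 0.27, adjusted p = 0.223). Against NTB, 0 of 16 chains passed by edgeR and 0 by DESeq2, with 3 at an unadjusted p under 0.05 and 14 negative, where 3.03% and 2.72% of all genes were called higher and lower. The smallest p in that comparison belonged to Col14a1, at -0.79 (SE 0.31, adjusted p = 0.123), Col13a1, a transmembrane chain, at -0.85 (SE 0.33, adjusted p = 0.127) and Col8a1 at -0.56 (SE 0.25, adjusted p = 0.188). Fibroblast markers were negative in 8 of 8 (4 called) and endothelial markers in 6 of 6 (3 called) in 3P10 against NTB. In IgG1 against NTB these were 6 of 8 and 5 of 6 (0 called in either), and macrophage markers went the other way (0 of 3 negative, 1 called higher). Skeletal muscle markers were negative in 8 of 8 (0 called) in both comparisons with NTB, and their sum ran from 0.829 to 2311 CPM over the brown fat libraries. In 3P10 against IgG1, 12 of 16 chains were positive. There fibroblast markers were negative in 6 of 8 (3 called lower) and endothelial markers in 6 of 6 (1 called lower). Macrophage markers were negative in 2 of 3 and skeletal muscle markers in 6 of 8 (0 called in either). The part of all these markers was not tested.

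A list of 69 genes that make, modify, assemble, cut or bind collagen was read beside the chains. In white fat of IgG1 mice, 23 of 65 tested fell and 1 rose (Tgfbr1, a TGF-beta receptor), where 4.55% and 4.09% of all genes were called lower and higher. Without the libraries numbered 14 or more, 2 fell and 0 rose, and the number that fell was 8 to 28 with 1 library left out. With those libraries kept and a term for them in the model, 24 fell and 0 rose. The 23 included 4 of 6 genes for chaperones and secretion, 4 of 8 for degradation and uptake, 3 of 7 for propeptide processing, 3 of 12 for hydroxylation and both glycosylation genes. Fn1, the fibronectin scaffold on which fibrils assemble, fell by 1.58 (SE 0.25, adjusted p = 0.00588). Lum, a leucine-rich proteoglycan of fibrils that is also among the fibroblast markers, fell by 1.84 (SE 0.32, adjusted p = 0.00811). Plod2, a lysyl hydroxylase, fell by 1.36 (SE 0.24, adjusted p = 0.00854), and Pcolce, which enhances removal of the procollagen C-propeptide, fell by 1.31 (SE 0.25, adjusted p = 0.00939). In 3P10 against IgG1, 14 of 65 rose and 0 fell, where 3.96% and 3.46% of all genes were called. Without the libraries numbered 14 or more 0 were called, with the term for them 16 rose and 0 fell, and the number that rose was 0 to 26 with 1 library left out. In the fit of all libraries the values included Plod2, Lum, Ctsk, a collagen-cutting cathepsin, and Fn1 at 1.23, 1.55, 1.11 and 1.02. In 3P10 against NTB, 0 of 65 passed.

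In muscle of IgG1 mice, 14 of 64 genes of the list fell and 2 rose, where 2.92% and 2.68% of all genes were called lower and higher. Without the libraries numbered 14 or more, 11 fell and 3 rose, and the number that fell was 6 to 18 with 1 library left out. With the term for those libraries, 26 fell and 4 rose. Sparc, a collagen-binding secreted chaperone, fell by 1.04 (SE 0.14, adjusted p = 0.00125), Loxl2, a lysyl oxidase that cross-links collagen, fell by 1.58 (SE 0.24, adjusted p = 0.00206), Serpinh1, the collagen chaperone HSP47, fell by 0.997 (SE 0.18, adjusted p = 0.00575), and Colgalt2, a collagen galactosyltransferase, fell by 0.97 (SE 0.19, adjusted p = 0.00828). Lox, the founding cross-linking enzyme, and P4hb, the shared subunit of prolyl 4-hydroxylase, went the other way: Lox rose by 1.10 (SE 0.22, adjusted p = 0.00931) and P4hb rose by 0.68 (SE 0.18, adjusted p = 0.0393). The 3P10 comparisons of muscle had 0 of 64 called. In brown fat, where no chain passed in IgG1 against NTB, 2 of 39 genes fell, where 1.11% of all genes did, Serpinh1 by 0.996 and P4ha1, the catalytic subunit of prolyl 4-hydroxylase, by 1.02. In 3P10 against IgG1 3 of 39 rose and 5 fell, shares of all genes being 6.05% and 5.58%, among them Serpinh1 at 1.03 and the metalloprotease inhibitors Timp4 at -1.47 and Timp3 at -0.78, and in 3P10 against NTB 0 rose and 4 fell, where 2.72% of all genes fell.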

How the data were processed

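RNA of 47 libraries was counted per gene by the authors. The deposited values are raw counts, whole numbers per gene symbol. The submitters' processing notes name Trim Galore, STAR 2.6.0a on mm9, featureCounts 1.6.2 and edgeR 3.22.3. Neither annotation nor strand setting of the counting is given in the sources used here, so reads of overlapping genes could not be told apart. Brown fat was prepared with a 3′ kit with a molecular identifier module, and whether identifiers were collapsed is not stated; white fat and muscle were prepared with a directional whole-transcript kit, so long transcripts gather more counts and brown fat was never set against the others.

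Each tissue was fitted alone with R 4.3.3 and edgeR 4.0.16: 3 groups in one quasi-likelihood model, TMM factors, filterByExpr (minimum count 10, minimum total 15), 2-sided tests and Benjamini-Hochberg adjustment over all genes at 0.05. White fat and muscle were also fitted jointly. SE is the absolute log2 difference over the square root of F. Replicates are separate samples per the labels, and p-values measure only the spread between them. Correlations of the deviations of same-numbered replicates from their group means ran from -0.596 to 0.556 over 12 pairs of groups, and in none were all over 0.1, so replicates were not paired; the block gives the paired values. Level per kilobase used the longest coding transcript of GENCODE M21. The fit was tested on simulated data. Alternatives were DESeq2 1.42.0, RLE factors, no filter, at least 1 CPM in 5 libraries, the compared groups alone, a replicate block, and leaving out each library in turn; leaving out libraries numbered 14 or more and a term for them were added after the data were seen. Members, gene lists and tests were chosen with earlier results of these data known. Values are given for a fixed panel of chains, up to 10 called chains and 4 uncalled chains with the smallest p per comparison and up to 4 called genes of the biosynthesis list; Tgfbr1, Lox and P4hb were named after their values were seen.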

Additional observations from a re-analysis of the deposited data

Results flagged for a closer look

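In 10 of 99 groups of 5 or 6 samples tested, 1 sample lay apart by Dixon's criterion, and chance gives about 1 in 20 for independent groups. Class sums and their own chains were tested in the same libraries. The 99 are therefore not independent, and their number is not to be read against that rate. For summed levels, the fibrillar chains were at 376 CPM in brown fat NTB replicate 4 (others 572 to 654) and at 528 CPM in muscle IgG1 replicate 1 (others 124 to 230), and the type VI chains at 1503 CPM in white fat 3P10 replicate 3 (others 611 to 856). In that same white fat library Col6a1 was at 597 CPM (others 246 to 343) and Col6a2 at 665 CPM (others 237 to 334). White fat NTB replicate 5 had Col1a2 at 429.8 CPM (others 696 to 731). Muscle IgG1 replicate 1 had Col1a2 at 145 CPM (others 31.4 to 54.9) and Col3a1 at 164 CPM (others 21.4 to 44.5). Col11a1 was at 0.968 CPM in muscle 3P10 replicate 1 (others 0.285 to 0.451), and Col18a1 at 5.45 CPM in muscle 3P10 replicate 4 (others 6.59 to 7.04).

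For Col11a1 the joint fit gave an interaction value of 4.38 on the log2 scale (adjusted p = 0.0217, edgeR). Col11a1 did not pass the filter in white fat and entered the joint fit through muscle, so this value does not show that the effect differs between the tissues. The call was lost with pairs of same-numbered libraries as a block (4.11, adjusted p = 0.174), without white fat IgG1 replicate 4 (3.67, adjusted p = 0.107) and without the 8 libraries numbered 14 or more (2.69, adjusted p = 0.335), and Col11a1 is not tested with a filter of 1 CPM in 5 libraries.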

How the results depend on the processing

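With library totals in place of TMM, all 36 class means moved by less than 1 SD. Counts of chains called changed as follows. DESeq2 gave 17 in white fat IgG1 against NTB (main 9), 14 in white fat 3P10 against IgG1 (main 6), 17 in muscle IgG1 against NTB (main 11), 4 in muscle 3P10 against NTB (main 0) and 3 for the interaction (main 1). The compared groups alone gave 0 in 3P10 against IgG1 of brown fat (main 1) and of white fat. A filter of 1 CPM in 5 libraries gave 0 in brown fat 3P10 against IgG1 and 0 for the interaction. Leaving out libraries numbered 14 or more gave 1 in white fat IgG1 against NTB, 0 in white fat 3P10 against IgG1 and 0 for the interaction, and a term for them gave 20 in muscle IgG1 against NTB and 1 in each of the other muscle comparisons. A replicate block gave 2 in brown fat 3P10 against IgG1, 10 in white fat 3P10 against IgG1, 13 in white fat and 10 in muscle IgG1 against NTB, 31 in white fat against muscle (main 30) and 0 for the interaction. The block of the joint fit joins white fat and muscle libraries with the same group and number. Counts of the joint fit include the 8 chains that passed its filter through one tissue alone. With 1 library left out, the counts ran from 4 to 15 and from 0 to 14 in the white fat comparisons, 8 to 18 in muscle IgG1 against NTB, 0 to 5 in muscle 3P10 against IgG1, 0 to 2 in the same contrasts of brown fat, 0 to 0 in 3P10 against NTB of each tissue, 30 to 33 in white fat against muscle and 0 to 3 for the interaction.

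Of 3166 alternative values for single chains, 2881 kept their direction and side of the threshold, 148 lost a call, 132 gained one and 5 changed sign, all 5 without the libraries numbered 14 or more: in white fat Col7a1 at -0.16 (IgG1 against NTB) and 0.12 (3P10 against IgG1), Col11a2 0.20 in 3P10 against IgG1 and -0.087 in the interaction, and Col27a1 -0.89 in the interaction. The cause was not tested. All genes called ranged with 1 library left out from 34 to 554 (brown fat IgG1 against NTB, main 259), 646 to 1120 (3P10 against IgG1, 1013), 172 to 675 (3P10 against NTB, 501), 344 to 2354 (white fat IgG1 against NTB, 1245), 127 to 2304 (3P10 against IgG1, 1068), 327 to 1307 (muscle IgG1 against NTB, 744), 8 to 231 (3P10 against IgG1, 28) and 44 to 582 (interaction, 166). Under the other alternatives they ran from 154 to 333, 712 to 1015, 340 to 587, 84 to 2551, 0 to 2282, 347 to 2455, 7 to 668 and 20 to 556 in that order, and 0 to 19 and 0 to 15 for 3P10 against NTB in white fat and muscle (main 0). Depth limits brown fat, where 28 of 44 chains could not be tested.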
